A study of Saccharomyces cerevisiae with 12 samples.

Results

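Nitrogen catabolite repression was followed through 36 budding yeast genes, which encode permeases and enzymes for the use of nitrogen sources together with the GATA transcription factors and pathway activators that control them. The genes were picked by symbol in the probe annotation, with earlier results of these data known. All 36 were found among the 5636 genes with values. Each of the 36 had a value on all 12 arrays, from 1 probe for 13 genes and from the average of 2 probes for the other 23. On dual-colour oligonucleotide arrays, total RNA of a Saccharomyces cerevisiae strain labelled as a gcr1 null mutant was set against RNA of a second strain, with 4 arrays for cultures in 3% raffinose, 4 for 3% galactose and 4 for 2% glucose. GCR1 encodes a transcriptional activator of glycolytic genes. The second strain, the strain background, the construction of the null allele and the nitrogen source of the medium are not named in the labels, and the second strain was taken to carry GCR1. Per the design text, the arrays hold biological replicates and a dye-swapped technical repeat for each of them, but not which array repeats which culture. The 4 arrays of a sugar therefore stand for fewer than 4 cultures, so p-values computed over arrays can come out too small.

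In cells with a preferred nitrogen source such as glutamine or ammonium, Ure2 holds the GATA activators Gln3 and Gat1 in the cytoplasm, and genes for the uptake and breakdown of poorer sources are little transcribed. When preferred sources run short, or when the TOR kinase complex is inhibited, Gln3 and Gat1 enter the nucleus and bind GATA sequences in the promoters of these genes, where the GATA repressors Dal80 and Gzf3 compete with them. A second layer of activators answers to single nutrients: Dal81 and Dal82 to allantoin breakdown products, Dal81 and Uga3 to GABA, and Put3 to proline.

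Each value below is a log2 ratio between the strains, and a positive one was read as higher in the strain labelled as the mutant, called the labelled mutant here. That direction is likely but not settled, because the labels do not give the mutant's channel. It rests on the glycolytic genes GPM1 and PGK1, textbook targets of Gcr1, whose mean ratios were -5.39, -4.86 and -4.96, and -2.18, -2.37 and -1.91, in raffinose, galactose and glucose. The deleted gene goes against it: GCR1 read 1.67 ± 0.35 in raffinose, 1.58 ± 0.22 in galactose and 0.40 ± 0.14 in glucose (SD, n = 4 arrays), above 0 on all 12 arrays, and whether its probes lie in the deleted part is not known here. With the other direction, higher and lower would change places throughout. In bulk RNA, a change in the share of cells that express a gene and a change in RNA per cell cannot be told apart.

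Arrays numbered 1 and 2 stood apart from arrays numbered 3 and 4 in every sugar. Over probes with a gene name, arrays of the same pair correlated at r = 0.93 to 0.98 across probes, whereas arrays of different pairs correlated at 0.24 to 0.47 in raffinose, 0.66 to 0.73 in galactose and 0.78 to 0.85 in glucose. Over all probes the raffinose pairs correlated at -0.51 to -0.34, and the 114 unnamed spots whose ratios exceeded 5 in size on 6 or more arrays all had opposite signs on the pairs. The signs of the deposited ratios were kept, since the named probes correlated above 0. With the signs of raffinose replicates 3 and 4 turned, 0 of the 36 genes and 0 of all 5636 were called in raffinose (limma; turning cancels what both pairs share), against 16 and 2071 as deposited; at an unadjusted p under 0.05 the turned counts were 8 and 1463. Array medians over all genes lay between -0.19 and 0.30.

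In the labelled mutant 10 of the 36 genes were higher in raffinose, 19 in galactose and 23 in glucose. Of the 23 in glucose, 20 encode permeases and enzymes, 2 encode regulators and 1, DCG1, has no known function. They included GDH2 (6.7-fold), UGA1 (5.73-fold), MEP1 (5.17-fold) and PUT4 (4.97-fold). Genes were called with limma where the p adjusted by Benjamini and Hochberg's method across all 5636 genes was under 0.05. In raffinose 10 of the 36 genes were higher (27.8%) and 6 lower (16.7%), against 22.4% higher and 14.3% lower among all genes, shares that differ little. In galactose 19 were higher (52.8%) and 6 lower (16.7%), against 34.8% and 25.2% of all genes. In glucose 23 were higher (63.9%) and 6 lower (16.7%), against 26.8% and 31.8% of all genes. Without raffinose replicate 2 or 4, 6 rather than 10 genes were higher in raffinose, and without glucose replicate 1, 3 rather than 6 were lower in glucose. Shares of all genes are not given with an array left out, so these moves cannot be read as particular to the 36 genes. Both directions together, raffinose had 16 called, galactose 25 and glucose 29, against 36.7%, 60.0% and 58.6% of all genes. Raffinose, galactose and glucose gave median ratios of 0.17, 0.41 and 0.79 for the 36 genes, and of 0.052, 0.078 and -0.038 for all genes. With each array centred on its median, the raffinose calls among all genes split into 25.5% higher and 25.3% lower, and those among the 36 genes into 12 higher and 7 lower. With the replicate number as a block in the fit, raffinose had 17 of the 36 genes higher and 8 lower. Galactose had 26 and 8, and glucose 26 and 6. In either direction 60.4%, 76.8% and 74.9% of all genes were called with the block. Shares of all genes by direction are not given for it. The block takes shifts between replicate numbers out of the error. A block p for a ratio against 0 therefore does not measure how the mean varies over replicates.

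**Figure D1:**
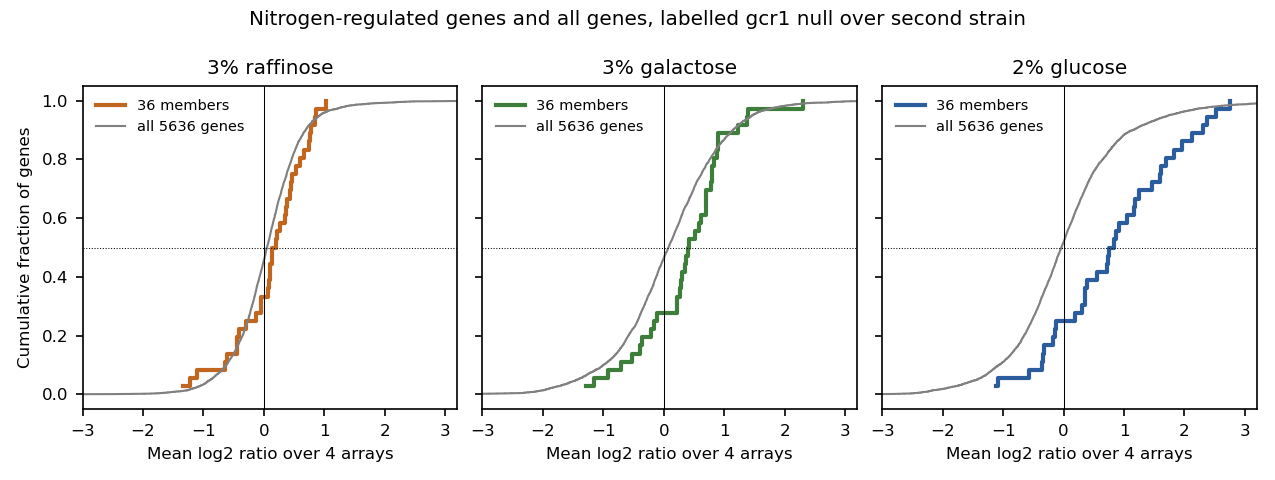
Cumulative fraction of genes (vertical axis) by mean log2 ratio over the 4 arrays of a sugar (horizontal axis, drawn from -3 to 3.2, so that a few more extreme genes are cut off), for the 36 nitrogen-regulated genes (coloured) and all 5636 genes (grey). The coloured curve lies furthest to the right of the grey one in glucose, where the medians are 0.79 and -0.038.

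A stricter count asked which calls also held, with the same sign, under all 3 ways of averaging the 4 arrays of a sugar into 2 pairs. In raffinose 0 genes held as higher and 2 as lower, MEP3 and GAT1 (background 2.2% and 1.06% of all genes). In galactose 9 held as higher, DAL5, DCG1, GAP1, MEP1, GLN1, GLT1, UGA1, DAL81 and PUT3, and 1 as lower, CAN1 (background 18.2% and 11.8%). In glucose 16 held as higher, DAL2, DAL4, DAL5, DAL7, DCG1, GAP1, MEP1, MEP2, PUT4, AVT4, GLN1, GDH2, GDH3, PUT1, PUT2 and UGA1, and 2 as lower, MEP3 and ASP1 (background 14.0% and 13.8%). The calls of all other genes were lost with replicates 1 and 2, and 3 and 4, averaged. When a sugar was fitted alone, the raffinose calls of DAL2, DAL5, DUR3, GAP1, MEP2 and GLT1, the galactose calls of DAL3, MEP2, GAT1 and UGA3 and the glucose call of DUR3 were lost. With arrays centred and scaled, the galactose calls of DAL3, GDH3 and GAT1 and the glucose calls of DAL3, DUR3, GAT1 and GZF3 were lost. Across the sugars, 8 genes were called higher in all 3 (22.2%, against 8.46% of all genes): DAL2, DAL5, DCG1, MEP1, MEP2, AVT4, GLT1 and UGA1. MEP3 was the single gene called lower in all 3 (2.78%, against 7.1% of all genes). A further 7 were called higher in 1 sugar and lower in another (19.4%, against 14.3% of all genes), namely DAL3, DAL4, DUR3, GAP1, GAT1, GZF3 and DAL81.

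**Figure D2:**
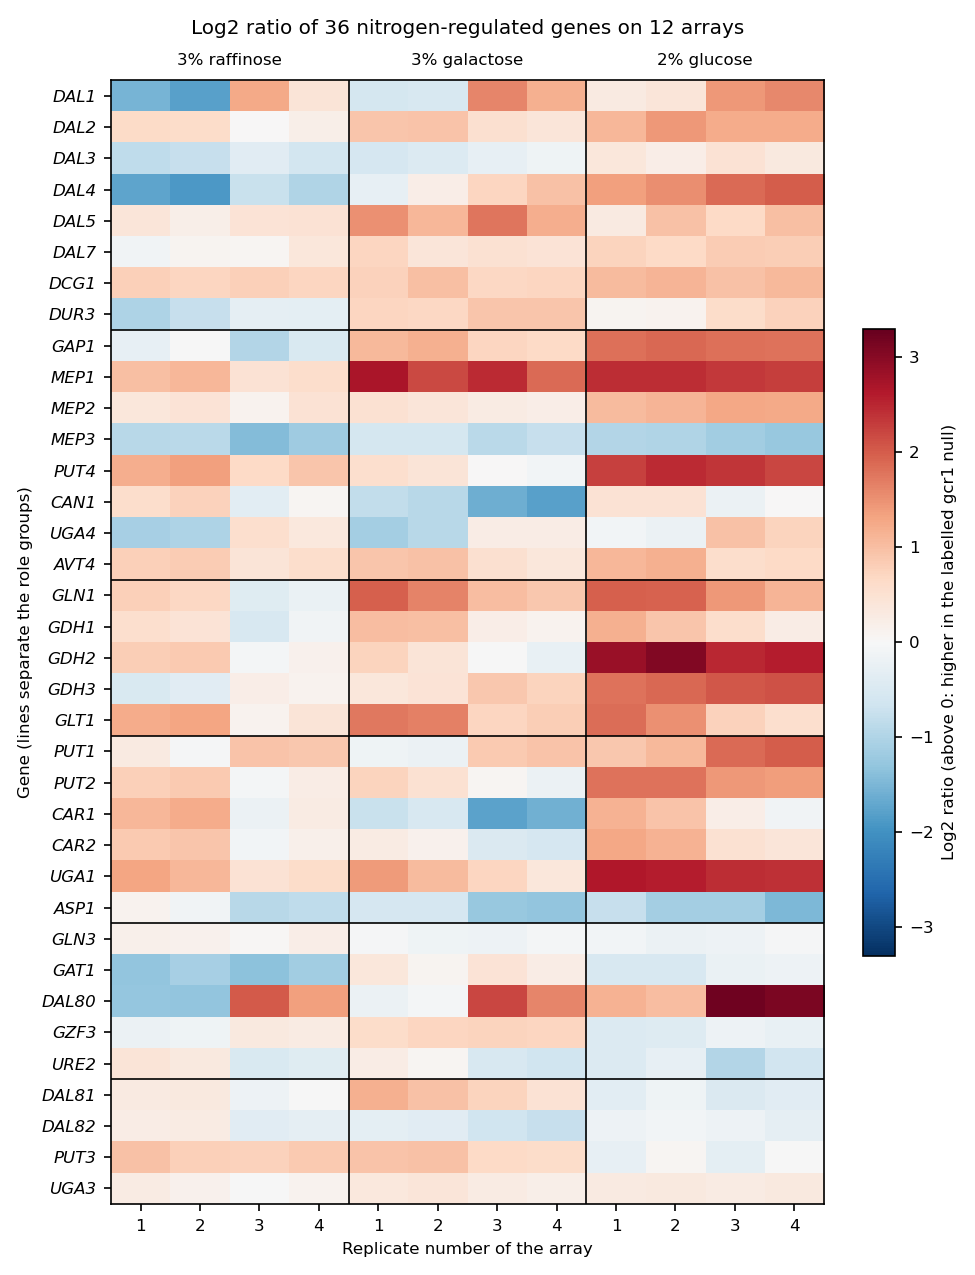
Log2 ratio (colour, red above 0 and blue below) of each of the 36 genes (rows, in role groups separated by lines) on each of the 12 arrays (columns, 4 per sugar). GAP1, MEP1, PUT4, GDH2, GDH3 and UGA1 are red on all 4 glucose arrays, MEP3 is blue on all 12 arrays, and DAL80 and DAL1 change colour between replicates 1 and 2 and replicates 3 and 4 in raffinose.

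Among the 8 genes for allantoin and urea use, 3 were higher and 3 lower in raffinose, 5 higher and 1 lower in galactose, and 7 higher and 0 lower in glucose, with median ratios of -0.16, 0.61 and 0.84. Those higher made up 37.5%, 62.5% and 87.5% of the group, against 22.4%, 34.8% and 26.8% of all genes. DAL4, the allantoin permease gene, had ratios of -1.74, -1.90, -0.72 and -1.001 on raffinose replicates 1 to 4, -0.28, 0.21, 0.71 and 0.96 on the galactose arrays and 1.36, 1.54, 1.86 and 2.00 on the glucose arrays. All 4 raffinose values lay below 0 and all 4 glucose values above it. Its means were -1.34 ± 0.57 in raffinose (SD, n = 4 here and below; adjusted p = 0.000571), 0.40 ± 0.55 in galactose (adjusted p = 0.136), and a 3.23-fold higher 1.69 ± 0.29 for glucose (adjusted p = 3.02e-05). DUR3, which encodes a urea and polyamine transporter, read -1.02, -0.75, -0.31 and -0.33 in raffinose, 0.70, 0.68, 0.91 and 0.91 in galactose and 0.079, 0.12, 0.61 and 0.75 in glucose. It fell in raffinose (-0.60 ± 0.35, adjusted p = 0.00649, or 0.0536 with raffinose fitted alone) and rose in galactose, where its mean was 0.80 ± 0.13 (adjusted p = 0.00044). The glucose mean of 0.39 ± 0.34 passed too (adjusted p = 0.0352), but not when glucose replicate 3 or 4 was left out (adjusted p = 0.146 and 0.187) or when arrays were centred. DAL5, the allantoate permease gene, was at 0.41, 0.20, 0.46 and 0.48 in raffinose, 1.50, 1.11, 1.78 and 1.19 in galactose and 0.29, 0.97, 0.66 and 0.98 in glucose. The galactose values all exceeded those of the other sugars, and the mean there was 1.39 ± 0.31 (adjusted p = 3.43e-06). DAL5 also rose in glucose (0.72 ± 0.33, adjusted p = 0.000646) and in raffinose (0.39 ± 0.13, adjusted p = 0.0451). That raffinose call was lost without any of the raffinose arrays (adjusted p = 0.107, 0.0589, 0.111 and 0.135 without replicates 1 to 4), and leaving out each of 3 arrays of the other sugars ended it too.

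The enzymes of the allantoin pathway were less alike. DAL2, which encodes allantoicase, averaged 0.36 ± 0.31 in raffinose, 0.70 ± 0.27 in galactose and 1.24 ± 0.13 in glucose and rose in all 3 sugars. Its raffinose call, at an adjusted p = 0.0497, was lost in turn without 10 of the 12 arrays, with adjusted p = 0.0514 to 0.203. DAL3, the ureidoglycolate lyase gene, fell in raffinose (-0.64 ± 0.20, adjusted p = 0.000552) and galactose (-0.36 ± 0.18, adjusted p = 0.0104) and rose in glucose (0.35 ± 0.10, adjusted p = 0.0132). Without galactose replicate 1 its galactose call was lost (adjusted p = 0.057), and without glucose replicate 3 its glucose call (adjusted p = 0.0662). DAL7, a malate synthase gene of the allantoin pathway, was at 0.10 ± 0.20 in raffinose, which did not pass (adjusted p = 0.472), and rose in galactose (0.52 ± 0.14, adjusted p = 0.000692) and glucose (0.76 ± 0.086, adjusted p = 3.32e-05). DCG1, a gene of unknown function beside them, read 0.77, 0.72, 0.78 and 0.70 in raffinose, 0.76, 0.99, 0.69 and 0.70 in galactose and 1.05, 1.11, 0.98 and 1.06 in glucose. It rose in each sugar, to 0.74, 0.79 and 1.05 on average (adjusted p = 5.16e-05, 8.15e-06 and 6.36e-07). DAL1, which encodes allantoinase, was read differently by the array pairs, at -1.54, -1.79, 1.26 and 0.43 in raffinose, -0.59, -0.53, 1.62 and 1.18 in galactose and 0.29, 0.39, 1.43 and 1.58 in glucose. It passed in no sugar (adjusted p = 0.557, 0.492 and 0.13), but with the replicate number as a block it passed in galactose (adjusted p = 0.0436) and glucose (adjusted p = 0.000407), and DAL4 passed in galactose as higher (adjusted p = 0.00394).

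DAL1, DAL4, DAL2, DCG1, DAL7 and DAL3 follow each other without a gap on chromosome 9 (IX) in the gene table of assembly R64, used here for names and order alone. Adjacent genes did not all share a mean ratio: in raffinose DAL4 averaged -1.34 beside DAL2 at 0.36, and DCG1, next to DAL2, averaged 0.74. DAL1, on the other side of DAL4, averaged -0.41, from array pairs of opposite sign. On raffinose replicates 1 and 2 DAL1 and DAL4 were alike, at -1.66 and -1.82. On replicates 3 and 4 they were at 0.84 and -0.86. In glucose all 6 means were above 0, from 0.35 for DAL3 to 1.69 for DAL4.

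**Figure D3:**
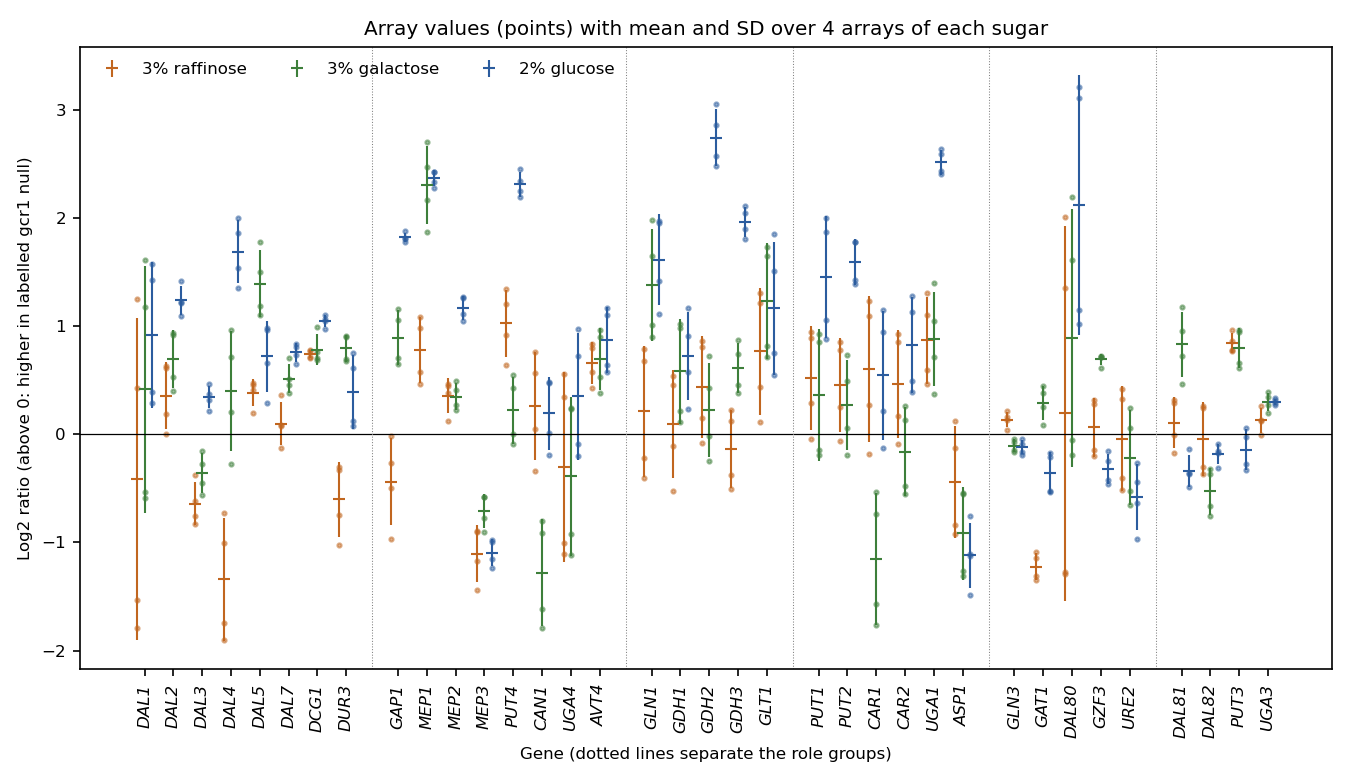
Log2 ratios of the 36 genes (horizontal axis, dotted lines between role groups), with a point for each array, a bar at the mean and a line for the SD over the 4 arrays in raffinose (orange), galactose (green) and glucose (blue). GDH2, PUT4, GAP1 and UGA1 stand higher in glucose than in the other sugars without overlap, and GAT1 stands lower in raffinose.

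Of 8 permease genes, 4 were higher and 2 lower in raffinose, 4 higher and 2 lower in galactose, and 5 higher and 1 lower in glucose, with medians of 0.31, 0.29 and 1.02. The share higher was 50.0%, 50.0% and 62.5%, against 22.4%, 34.8% and 26.8% of all genes. MEP1 and MEP2 encode ammonium permeases, Mep2 also being an ammonium sensor for filamentous growth, and MEP3 encodes the third, low-affinity ammonium permease. MEP1 read 0.99, 1.09, 0.47 and 0.57 in raffinose, 2.71, 2.17, 2.47 and 1.88 in galactose and 2.43, 2.43, 2.33 and 2.28 in glucose, so every array was above 0 and the raffinose arrays were the lowest. Its means were 0.78 ± 0.30, 2.31 ± 0.36 and 2.37 ± 0.073 (adjusted p = 0.00107, 9.61e-08 and 3.5e-08), or 1.72-fold, 4.94-fold and 5.17-fold higher. MEP3, by contrast, read -0.90, -0.90, -1.44 and -1.17 in raffinose, -0.58, -0.58, -0.90 and -0.77 in galactose and -0.98, -0.998, -1.16 and -1.24 in glucose, below 0 throughout. It fell in each sugar, to -1.10 ± 0.26, -0.71 ± 0.16 and -1.09 ± 0.13 (adjusted p = 1.7e-05, 0.000147 and 3.95e-06). MEP1 and MEP3 are close paralogs measured by 1 probe each, and cross-hybridisation between them was not tested. MEP2 rose in raffinose (0.36 ± 0.16, adjusted p = 0.0118), galactose (0.35 ± 0.12, adjusted p = 0.00734) and glucose (1.17 ± 0.11, adjusted p = 6.13e-07). Without raffinose replicate 2 or 4 its raffinose call was lost (adjusted p = 0.055 and 0.0625).

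The general amino acid permease gene GAP1, a classical target of nitrogen repression, read -0.27, -0.018, -0.96 and -0.50 in raffinose, 1.06, 1.16, 0.71 and 0.66 in galactose and 1.82, 1.89, 1.81 and 1.78 in glucose. The 3 sets of arrays did not overlap. GAP1 fell in raffinose (-0.44 ± 0.40, adjusted p = 0.0284), a call lost without raffinose replicate 3 or 4 (adjusted p = 0.15 and 0.0894). It rose in galactose (0.90 ± 0.25, adjusted p = 0.000135) and 3.54-fold in glucose (1.82 ± 0.045, adjusted p = 3.36e-07). PUT4, the proline permease gene, was at 1.21, 1.34, 0.65 and 0.92 in raffinose, 0.55, 0.43, 0.0065 and -0.088 in galactose and 2.25, 2.46, 2.35 and 2.19 in glucose. It rose 2.04-fold in raffinose (1.03 ± 0.31, adjusted p = 0.000119), did not pass in galactose (0.22 ± 0.31, adjusted p = 0.177; 0.0452 with the replicate block) and rose 4.97-fold in glucose (2.31 ± 0.12, adjusted p = 3.25e-08). CAN1, the arginine permease gene, went the other way in galactose, where it read -0.80, -0.92, -1.62 and -1.79 and fell (mean -1.28 ± 0.49, adjusted p = 0.00017). In raffinose it read 0.57, 0.76, -0.34 and 0.052, and in glucose 0.48, 0.48, -0.19 and 0.0085, on both sides of 0, with means of 0.26 ± 0.50 in raffinose (adjusted p = 0.356, or 0.0207 with the replicate block) and 0.19 ± 0.34 in glucose (adjusted p = 0.447). AVT4, which encodes an exporter of amino acids from the vacuole, rose in each sugar, at 0.66 ± 0.19 in raffinose, 0.70 ± 0.28 in galactose and 0.87 ± 0.30 in glucose (adjusted p = 0.00256, 0.000761 and 0.000136). UGA4, the GABA permease gene, passed in none (-0.30 ± 0.88 in raffinose, -0.39 ± 0.73 in galactose and 0.35 ± 0.58 in glucose). On replicates 3 and 4 its means were 0.45, 0.24 and 0.85 in the 3 sugars, and on replicates 1 and 2 they were -1.06, -1.02 and -0.14. The replicate block leaves the shift between the pairs out of the error. With it, UGA4 was called lower in raffinose and galactose and higher in glucose (limma, adjusted p = 0.0119, 0.00177 and 0.00352).

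Of 5 genes of ammonium assimilation and release, 1 rose in raffinose, 4 rose in galactose and all 5 rose in glucose, with 0 lower in any sugar and medians of 0.21, 0.61 and 1.62. That is 20%, 80% and all of the group higher, against 22.4%, 34.8% and 26.8% of all genes. GDH2, the NAD-dependent glutamate dehydrogenase gene, whose product releases ammonium from glutamate, had the highest glucose mean of the 36 genes. Its ratios were 0.81, 0.86, -0.076 and 0.15 in raffinose, 0.73, 0.43, -0.017 and -0.25 in galactose and 2.86, 3.06, 2.48 and 2.58 in glucose, with no overlap between glucose and the others. The mean was 2.75 ± 0.26 in glucose, 6.7-fold higher (adjusted p = 1.07e-07). The raffinose and galactose means of 0.44 ± 0.47 and 0.22 ± 0.44 did not pass (adjusted p = 0.0873 and 0.325; with the replicate block 0.0015 and 0.0418). GDH1 and GDH3 encode NADP-dependent glutamate dehydrogenases, which make glutamate from ammonium. GDH3 read -0.51, -0.37, 0.22 and 0.13 in raffinose, 0.38, 0.46, 0.88 and 0.74 in galactose and 1.80, 1.91, 2.04 and 2.11 in glucose, lowest in raffinose and highest in glucose without overlap. Its 2 probes averaged -0.34 and 0.077 in raffinose and differed by 0.303 in galactose and 0.023 in glucose. It averaged -0.13 ± 0.36 in raffinose (adjusted p = 0.486) and was 1.53-fold higher in galactose (0.61 ± 0.23, adjusted p = 0.00174, or 0.109 with arrays centred and scaled) and 3.91-fold higher in glucose (1.97 ± 0.14, adjusted p = 1.17e-07). GDH1 was at 0.094 ± 0.50 in raffinose, 0.58 ± 0.49 in galactose and 0.73 ± 0.41 in glucose. In raffinose its mean was -0.31 on replicates 3 and 4 and 0.50 on replicates 1 and 2. Its galactose call (adjusted p = 0.0316) was lost without galactose replicate 1 or 2 (adjusted p = 0.147 and 0.142), and its glucose call (adjusted p = 0.0108) without glucose replicate 1 (adjusted p = 0.0648). The paralogs GDH1 and GDH3 may cross-hybridise, which was not tested.

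GLN1, the glutamine synthetase gene, read 0.79, 0.68, -0.40 and -0.21 in raffinose, 1.98, 1.65, 1.01 and 0.90 in galactose and 1.98, 1.96, 1.42 and 1.11 in glucose. It rose 2.61-fold in galactose and 3.07-fold in glucose (adjusted p = 0.000249 and 7.41e-05). In raffinose the array pairs had opposite signs and the mean of 0.21 ± 0.61 did not pass (adjusted p = 0.517; 0.0495 with the replicate block). GLT1, which encodes glutamate synthase, was above 0 on all 12 arrays, at 1.22, 1.30, 0.11 and 0.44 in raffinose, 1.73, 1.65, 0.72 and 0.82 in galactose and 1.85, 1.51, 0.75 and 0.55 in glucose. Its means of 0.77 ± 0.58, 1.23 ± 0.54 and 1.17 ± 0.62 all passed (adjusted p = 0.0347, 0.00121 and 0.00185), and the raffinose call was lost without raffinose replicate 1, 2 or 4 (adjusted p = 0.141, 0.156 and 0.0506). In every sugar GLT1 was lower on replicates 3 and 4 than on replicates 1 and 2.

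Of the 6 amino acid catabolic enzyme genes, 1 was higher and 0 lower in raffinose, 1 higher and 2 lower in galactose, and 4 higher and 1 lower in glucose, with medians of 0.49, 0.058 and 1.14. Here 16.7%, 16.7% and 66.7% were higher, against 22.4%, 34.8% and 26.8% of all genes. UGA1, the GABA transaminase gene, read 1.30, 1.11, 0.47 and 0.60 in raffinose, 1.40, 1.05, 0.72 and 0.38 in galactose and 2.64, 2.60, 2.44 and 2.40 in glucose. Every array was above 0, and the glucose arrays were all above the rest. The means were 0.87 ± 0.40, 0.88 ± 0.44 and 2.52 ± 0.12 (adjusted p = 0.00161, 0.00057 and 8.26e-08), and the glucose one is a 5.73-fold increase. The proline oxidase gene PUT1 and the pyrroline-5-carboxylate dehydrogenase gene PUT2, which act in sequence in proline breakdown, both rose in glucose. PUT1 read 0.29, -0.041, 0.95 and 0.90 in raffinose, -0.14, -0.19, 0.85 and 0.93 in galactose and 0.88, 1.06, 1.87 and 2.00 in glucose, with every glucose array above 0. PUT2 read 0.79, 0.86, -0.061 and 0.25 in raffinose, 0.73, 0.50, 0.062 and -0.19 in galactose and 1.78, 1.78, 1.43 and 1.39 in glucose, the glucose arrays again the highest. In glucose PUT1 was at 1.45 ± 0.56 (adjusted p = 0.000267) and PUT2 at 1.60 ± 0.21 (adjusted p = 7.16e-06). The array pairs ranked these neighbours in the pathway in opposite ways, since PUT1 was higher and PUT2 lower on replicates 3 and 4 than on replicates 1 and 2 in each sugar. Neither passed in raffinose (adjusted p = 0.119 for PUT1 and 0.0594 for PUT2; 0.000166 and 0.000978 with the replicate block) or galactose (adjusted p = 0.229 and 0.197; 0.00144 and 0.0149 with the block).

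CAR1, the arginase gene, read 1.09, 1.23, -0.18 and 0.27 in raffinose, -0.74, -0.53, -1.76 and -1.57 in galactose and 1.15, 0.94, 0.21 and -0.12 in glucose. It fell in galactose (-1.15 ± 0.61, adjusted p = 0.00319), as the arginine permease gene CAN1 did, and its galactose values lay below all others. The means of 0.60 ± 0.67 in raffinose and 0.55 ± 0.60 in glucose did not pass (adjusted p = 0.11 and 0.111; with the replicate block 0.000182 and 0.000227). CAR2, which encodes ornithine transaminase, the next step, rose in glucose (0.83 ± 0.45, adjusted p = 0.00432) and did not pass in raffinose (0.46 ± 0.50, adjusted p = 0.102; 0.000228 with the block) or galactose (-0.16 ± 0.41, adjusted p = 0.534). In galactose CAR2 was at -0.51 on replicates 3 and 4 and 0.19 on replicates 1 and 2. ASP1, the cytosolic asparaginase gene, averaged -0.44 ± 0.52 in raffinose, -0.92 ± 0.43 in galactose and -1.12 ± 0.30 in glucose. It fell in galactose and glucose (adjusted p = 0.0014 and 0.000329), and in raffinose passed with the replicate block alone (adjusted p = 0.00179, against 0.1).

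Of the 5 genes for GATA factors and Ure2, 0 were higher and 1 lower in raffinose, 2 higher and 0 lower in galactose, and 1 higher and 3 lower in glucose, with medians of 0.065, 0.29 and -0.32. Lower calls made up 20.0%, 0.0% and 60.0%, against 14.3%, 25.2% and 31.8% of all genes, and higher calls 0.0%, 40.0% and 20.0%, against 22.4%, 34.8% and 26.8%. GLN3, the gene of the main GATA activator, read 0.16, 0.13, 0.043 and 0.21 in raffinose, -0.039, -0.14, -0.17 and -0.073 in galactose and -0.087, -0.19, -0.16 and -0.042 in glucose. All 12 values lay within 0.22 of 0 and its means of 0.14 ± 0.071, -0.10 ± 0.059 and -0.12 ± 0.067 passed in no sugar (adjusted p = 0.228, 0.298 and 0.239). GAT1, the other activator and itself a nitrogen-repressed gene, read -1.31, -1.09, -1.35 and -1.15 in raffinose, 0.38, 0.086, 0.45 and 0.25 in galactose and -0.52, -0.53, -0.21 and -0.17 in glucose. The raffinose arrays were all below the others, and GAT1 fell there to -1.22 ± 0.12 (adjusted p = 3.43e-06), 0.428 times the level of the second strain. The galactose mean was 0.29 ± 0.16 (adjusted p = 0.0289; without galactose replicate 1, 3 or 4, adjusted p = 0.0931, 0.128 and 0.0555). The glucose mean was -0.36 ± 0.20 (adjusted p = 0.0101; without glucose replicate 1 or 2, adjusted p = 0.0536 and 0.0595).

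DAL80, a GATA repressor gene that is itself induced on poor nitrogen sources, showed the widest spread of the 36 genes, at -1.28, -1.30, 2.01 and 1.35 in raffinose, -0.19, -0.054, 2.20 and 1.62 in galactose and 1.15, 1.02, 3.21 and 3.11 in glucose. On all glucose arrays it was above 0, whereas in raffinose and galactose replicates 1 and 2 were below 0 and replicates 3 and 4 above it. It rose in glucose (2.12 ± 1.20, adjusted p = 0.00859), a call lost without glucose replicate 3 (adjusted p = 0.0522), and did not pass in raffinose (0.20 ± 1.74, adjusted p = 0.827) or galactose (0.89 ± 1.20, adjusted p = 0.221; 7.53e-05 with the replicate block). Its paralog GZF3, also a GATA repressor gene, read -0.20, -0.14, 0.32 and 0.28 in raffinose, 0.61, 0.72, 0.72 and 0.72 in galactose and -0.46, -0.42, -0.15 and -0.25 in glucose. GZF3 rose in galactose (0.69 ± 0.052, adjusted p = 0.000142) and was at 0.065 ± 0.27 in raffinose (adjusted p = 0.683). In glucose it fell (-0.32 ± 0.14, adjusted p = 0.0238), but not without glucose replicate 1 or 2 (adjusted p = 0.0948 and 0.0905), and with each array centred on its median it did not pass either. URE2, whose product retains Gln3, averaged -0.039 ± 0.48 in raffinose, -0.21 ± 0.44 in galactose and -0.58 ± 0.30 in glucose. On replicates 3 and 4 its means were -0.46, -0.59 and -0.80, and on replicates 1 and 2 they were 0.38, 0.16 and -0.35. It fell in glucose (adjusted p = 0.0212), though not with glucose replicate 3 or 4 left out (adjusted p = 0.115 and 0.0655), and with the replicate block it was also called lower in galactose (adjusted p = 0.0439, against 0.36).

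Among the 4 pathway-specific activators, 1 was higher and 0 lower in raffinose, 3 higher and 1 lower in galactose, and 1 higher and 1 lower in glucose, with medians of 0.12, 0.55 and -0.16. With 4 genes, the 25%, 75% and 25% higher stood against 22.4%, 34.8% and 26.8% of all genes, so raffinose and glucose were near the background. PUT3, the proline pathway activator gene, read 0.97, 0.78, 0.77 and 0.87 in raffinose, 0.94, 0.97, 0.66 and 0.62 in galactose and -0.28, 0.06, -0.33 and -0.024 in glucose. It rose in raffinose (0.85 ± 0.091, adjusted p = 7.56e-05) and galactose (0.80 ± 0.18, adjusted p = 3.01e-05) and was at -0.14 ± 0.19 in glucose (adjusted p = 0.262), the sugar in which PUT1, PUT2 and PUT4 had their highest means. DAL81 was at 0.29, 0.32, -0.17 and -0.009 in raffinose, 1.18, 0.96, 0.73 and 0.47 in galactose and -0.36, -0.13, -0.48 and -0.37 in glucose. It rose in galactose (0.83 ± 0.30, adjusted p = 0.000117), did not pass in raffinose (0.11 ± 0.24, adjusted p = 0.545) and fell in glucose (-0.34 ± 0.15, adjusted p = 0.039), though not with glucose replicate 1, 3 or 4 left out (adjusted p = 0.0952, 0.144 and 0.103). DAL82 fell in galactose (-0.53 ± 0.21, adjusted p = 0.00334), with -0.041 ± 0.34 in raffinose and -0.18 ± 0.092 in glucose (adjusted p = 0.833 and 0.244). Its raffinose mean was -0.34 on replicates 3 and 4 and 0.25 on replicates 1 and 2. UGA3 rose in galactose and glucose by a small margin (0.30 ± 0.084 and 0.30 ± 0.028, adjusted p = 0.00831 and 0.0087) and was at 0.13 ± 0.11 in raffinose (adjusted p = 0.267).

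The sugars were then compared with each other by the difference between their mean ratios in the same fit. The mean ratio was highest in glucose for 21 of the 36 genes (58.3%, against 34.5% of all genes) and lowest in raffinose for 20 (55.6%, against 23.6%). Raffinose minus glucose was called lower for 15 genes (41.7%, background 15.0%) and higher for 1 (2.78%, background 22.6%). Galactose minus glucose was called lower for 14 (38.9%, background 19.3%) and higher for 5 (13.9%, background 27.8%). Raffinose minus galactose was called lower for 11 (30.6%, background 17.2%) and higher for 3 (8.33%, background 13.3%). Both directions together, the counts were 16, 19 and 14, against 37.6%, 47.1% and 30.5% of all genes. Each comparison shares arrays with the other two, so their counts are not independent. With the replicate block 29 genes were called in raffinose minus glucose, 26 in galactose minus glucose and 25 in raffinose minus galactose (background 62.0%, 69.1% and 59.6%). Those called higher were then 6, 8 and 7. For these comparisons, shares of all genes by direction are not given with the block, arrays centred or arrays left out. Such counts by direction cannot be read as particular to the 36 genes. Without raffinose replicate 1 or 3, raffinose minus glucose had 2 and 3 genes higher rather than 1, and with arrays centred on their medians 3, while raffinose minus galactose then had 6 rather than 3. The genes that joined with the block included DAL80 in all 3 comparisons (adjusted p = 5.91e-06 for raffinose minus glucose, 0.000128 for galactose minus glucose and 0.00868 for raffinose minus galactose). With raffinose replicates 3 and 4 turned the counts were 23 and 15 (background 48.0% and 44.4%).

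DAL4 differed most between raffinose and glucose, by -3.03 ± 0.31 (raffinose minus glucose, SE; adjusted p = 2.33e-05), followed by GDH2 (-2.31 ± 0.27, adjusted p = 4.78e-05), GAP1 (-2.26 ± 0.20, adjusted p = 7.87e-06) and GDH3 (-2.10 ± 0.19, adjusted p = 9.91e-06). These 4 were also the ones that held as lower under all 3 ways of averaging arrays in pairs, with 0 held as higher (background 1.92% and 0.426%). The averaged fits had no replicate block. With 1 and 2, and 3 and 4, averaged, a shift shared by same-numbered arrays therefore stayed in the error of these differences. A call that did not hold can still come from a difference that was steady over replicate numbers. PUT3 was the single gene of the 36 called higher in raffinose than in glucose (0.99 ± 0.15, adjusted p = 0.0003). Between galactose and glucose the lowest differences were those of GDH2 (-2.52 ± 0.27, adjusted p = 9.4e-06), PUT4 (-2.09 ± 0.19, adjusted p = 3.73e-06), CAR1 (-1.70 ± 0.39, adjusted p = 0.00337) and UGA1 (-1.63 ± 0.24, adjusted p = 0.000112). Regulators led the higher ones, with DAL81 at 1.17 ± 0.18 (adjusted p = 0.000191), GZF3 at 1.01 ± 0.15 (adjusted p = 0.000169) and PUT3 at 0.94 ± 0.15 (adjusted p = 0.000202), before DAL5 at 0.67 ± 0.20 (adjusted p = 0.0134). DAL5 was not called there with each array centred on its median. In this comparison GDH2, PUT4, UGA1 and GDH3 held as lower under the 3 averagings and 0 genes as higher (background 5.68% and 8.45%).

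Raffinose and galactose were both given at 3%. CAR1 and CAN1 had higher ratios in raffinose than in galactose, by 1.75 ± 0.39 and 1.54 ± 0.29 (adjusted p = 0.00537 and 0.00201), as did PUT4 (0.81 ± 0.19, adjusted p = 0.00752). DAL4 (-1.74 ± 0.31, adjusted p = 0.00141), MEP1 (-1.53 ± 0.20, adjusted p = 0.000171), GAT1 (-1.51 ± 0.15, adjusted p = 1.94e-05) and DUR3 (-1.40 ± 0.21, adjusted p = 0.000375) were lower. Of the 14 calls of this comparison, 0 held under the 3 averagings (limma, background 0.497% higher and 0.994% lower). Those fits ignore that same-numbered arrays shifted together across sugars. The replicate block, which takes that shift out of the error, ended no call of this comparison. With replicates 1 and 2, and 3 and 4, averaged, 9 of the 36 genes had an unadjusted p under 0.05 (limma). Of all 5636 genes, 933 did so in that setting. By adjusted p, 0 of the 36 genes and 84 of all genes were called there.

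**Figure D4:**
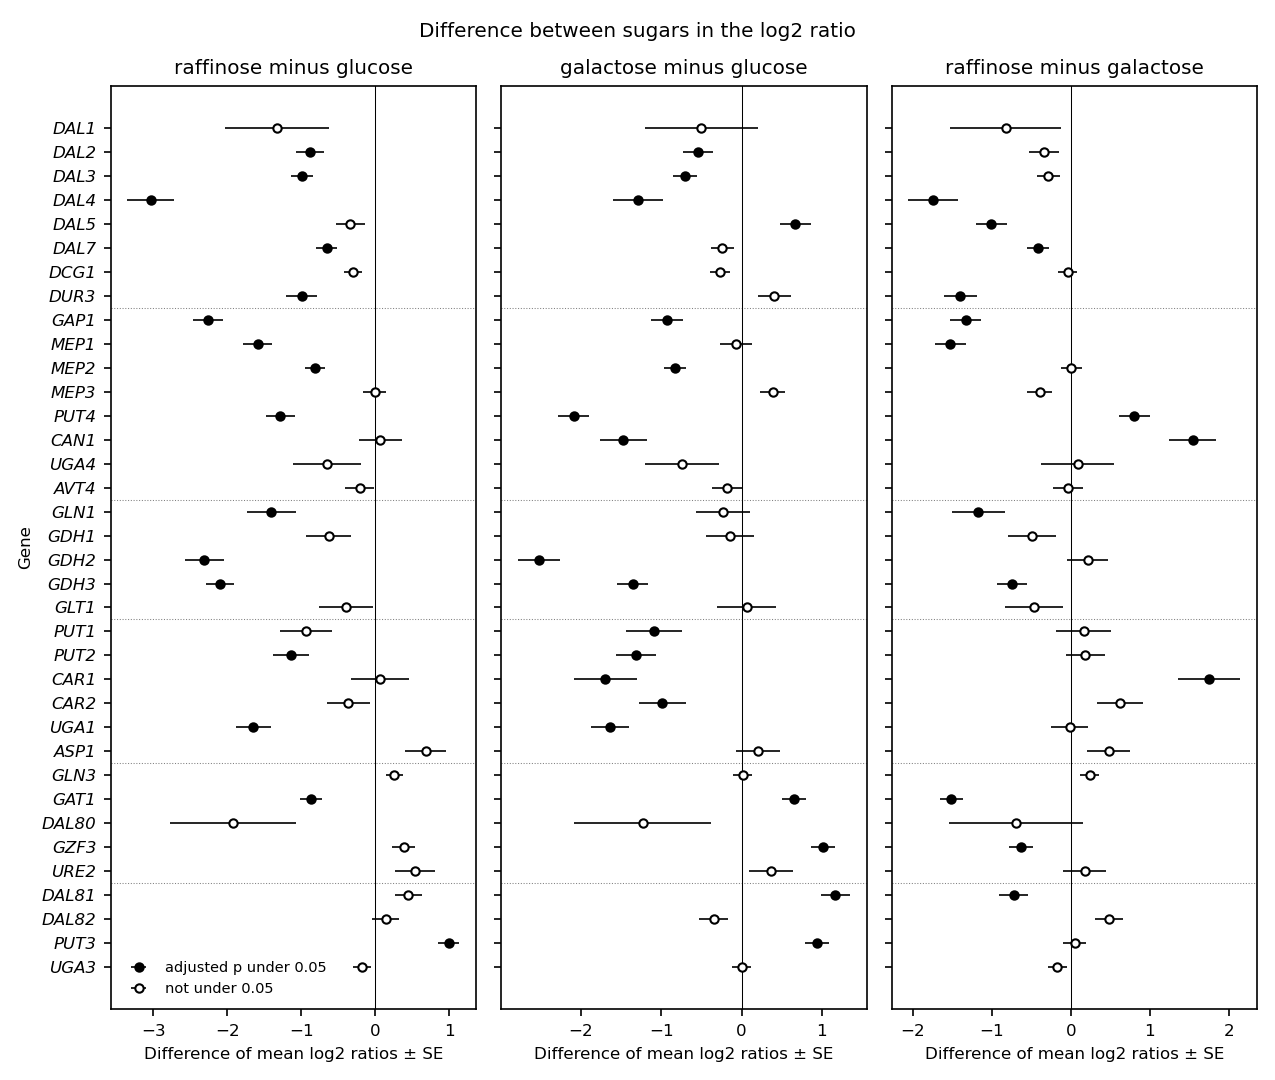
Difference between the mean log2 ratios of 2 sugars (horizontal axis, ± SE from limma) for each of the 36 genes (vertical axis, dotted lines between role groups), filled where the adjusted p was under 0.05 and open otherwise. Most filled points lie left of 0 in each panel, DAL4, GDH2, GAP1 and GDH3 furthest in raffinose minus glucose, and PUT3 and DAL81 lie right of 0 in galactose minus glucose.

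The split between the array pairs touched some of these genes far more than others. The mean of replicates 3 and 4 minus that of replicates 1 and 2, averaged over the sugars, was above 0 for 12 of the 36 genes (33.3%) and for 19.5% of all genes, with medians of -0.30 and -0.39. DAL80 had the highest difference of the 36 at 2.36, and DAL1 followed at 1.88, UGA4 at 1.26, PUT1 at 0.94 and DAL4 at 0.77. At the other end were CAR1 at -1.05, GLT1 at -0.98 and GLN1 at -0.87. DAL80 and DAL1 were the 2 genes with a difference over 1.5 in size (5.56%, against 4.15% of all genes). In raffinose 12 of the 36 genes had opposite signs on the pairs (33.3%, against 45.4% of all genes), in galactose 10 (27.8%, against 28.5%) and in glucose 2 (5.56%, against 20.7%). These differences were singled out after the values were seen, and no cause was tested. Whether the pairs differ by dye orientation, by culture or by both is not given in the labels.

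**Figure D5:**
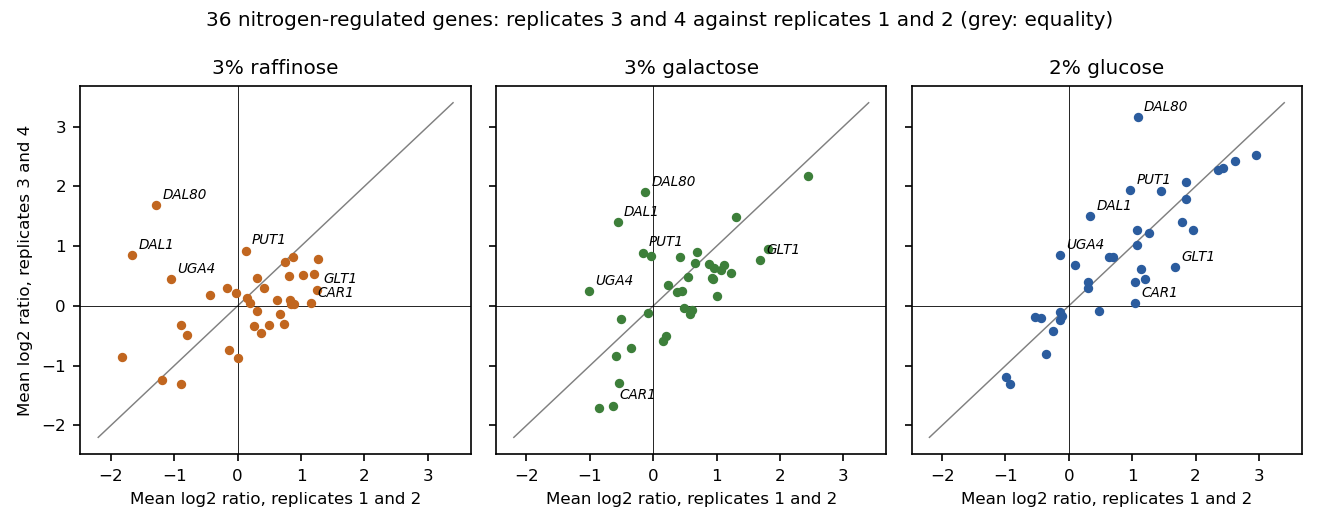
Mean log2 ratio of each of the 36 genes on replicates 3 and 4 (vertical axis) against replicates 1 and 2 (horizontal axis) in each sugar, with the line of equality in grey. DAL80, DAL1 and UGA4 lie well above the line in all 3 sugars, and 25 of the 36 genes lie below it in raffinose. The share of all genes below it in raffinose is not given. Averaged over the sugars, the difference was above 0 for 33.3% of the 36 genes and 19.5% of all genes.

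Other nitrogen genes, outside the 36, were set beside them as a pair of lists, also chosen with earlier results of these data known. Of 18 other genes named as sensitive to nitrogen repression, 5 were higher and 3 lower in raffinose, 5 higher and 0 lower in galactose, and 13 higher and 0 lower in glucose, with medians of -0.16, 0.11 and 0.76. Higher genes made up 27.8%, 27.8% and 72.2% of the list, against 22.4%, 34.8% and 26.8% of all genes. With 18 genes, raffinose was near the background and galactose not clearly apart from it. The shares count ASP3-1, ASP3-2, ASP3-3 and ASP3-4 singly, which had similar array values in raffinose and galactose. They passed in no sugar, so counting them singly lowers the shares called. Cross-hybridisation between them was not tested. NPR2 is counted in both lists. The vacuolar aminopeptidase gene APE1 averaged 3.06 ± 0.39 in raffinose, 1.02 ± 0.25 in galactose and 2.88 ± 0.091 in glucose, called higher in each sugar. UGA2, the succinate semialdehyde dehydrogenase gene that acts after UGA1 in GABA breakdown, was also called higher in each, at 0.84 ± 0.41 in raffinose, 1.42 ± 0.63 in galactose and 2.40 ± 0.13 in glucose. The vacuolar protease gene PRB1 rose in galactose and glucose (1.81 ± 0.39 and 1.72 ± 0.35) and was at -0.24 ± 0.30 in raffinose, which did not pass. The amino acid permease gene AGP1 fell in raffinose (-0.90 ± 0.21), was at -0.039 ± 0.13 in galactose and rose in glucose (0.97 ± 0.23). ECM38, which encodes a glutathione-degrading enzyme, likewise fell in raffinose (-0.54 ± 0.37), was at 0.16 ± 0.33 in galactose and rose in glucose (0.54 ± 0.12), and its raffinose call was lost without raffinose replicate 3 (adjusted p = 0.0681).

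Of 17 genes of TOR signalling and amino acid sensing, 4 were higher and 0 lower in raffinose, 10 higher and 1 lower in galactose, and 3 higher and 1 lower in glucose, with medians of 0.074, 0.31 and 0.04. Higher calls made up 23.5%, 58.8% and 17.6% of them, against 22.4%, 34.8% and 26.8% of all genes. With 17 genes, raffinose was near the background and glucose not clearly apart from it. TAP42, whose product binds TOR-controlled phosphatases, rose in raffinose and galactose (1.17 ± 0.11 and 1.66 ± 0.20) and was at 0.22 ± 0.29 in glucose, which did not pass. The gene of its partner Tip41, TIP41, was called higher in each sugar, at 0.94 ± 0.40 in raffinose, 0.62 ± 0.39 in galactose and 1.21 ± 0.27 in glucose. STP1 and STP2 encode factors that act downstream of the amino acid sensor. STP1 rose in raffinose and galactose (0.67 ± 0.23 and 0.95 ± 0.24) and was at 0.27 ± 0.22 in glucose. STP2 was at -0.22 ± 0.33 in raffinose and rose in galactose and glucose (0.49 ± 0.30 and 0.56 ± 0.15). The phosphatase gene SIT4 fell in galactose (-0.51 ± 0.37), a call lost without galactose replicate 4 (adjusted p = 0.0574), and was at -0.17 ± 0.21 in raffinose and 0.12 ± 0.23 in glucose, which did not pass. NPR3, for a negative regulator of TOR complex 1, was at 0.045 ± 0.11 in raffinose, rose in galactose (0.40 ± 0.063) and fell in glucose (-0.52 ± 0.067).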

How the data were processed

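Yeast RNA was amplified and labelled with an Agilent kit, Cy5 marking channel 1 and Cy3 channel 2 of all 12 arrays, per the labels. The authors deposited a log2 ratio for each probe of each array. The base was read from the size of the values, so every fold rests on it, and normalization and sign turning by the authors are not given in the sources used. Spot intensities were not analysed here, so signal over background is unknown, and precision is limited by the number of arrays.

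The platform annotation names a gene for 9271 of 10807 probes. Probes were averaged per gene, and genes needed 3 values per sugar, which left 5636, the 36 described genes among them. For 3 of the 36 genes the 2 probes differed by over 0.3 in at least 1 sugar. Symbols matched the gene table of assembly R64. Promoter and protein sequences were not used here.

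limma 3.58.1 in R 4.3.3 (lmFit, eBayes) was fitted to all 12 arrays with 1 mean per sugar, each tested against 0 and against the other sugars, with Benjamini-Hochberg adjustment over all genes. The fit was tested on simulated data. Same-numbered arrays deviated together across sugars (r = 0.52 to 0.89 across genes), so the replicate number was also fitted as a block. In tests against 0 the block p-values leave this shared shift out of the error. All 36 genes are named, and for differences between sugars up to 4 called genes at each end. Of the other lists, up to 2 called genes at each end per sugar are named. The genes and lists were chosen with earlier results of these data known. DUR1,2 was not analysed here.
Alternatives were other averagings of arrays, centring, scaling, turned raffinose signs, single probes, sugars fitted alone and leaving out each array.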

Additional observations from a re-analysis of the deposited data

Results flagged for a closer look

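The genes named for differences between sugars were picked from those called in each comparison, so that they passed follows from the choice. For raffinose minus glucose the differences were 0.99 for PUT3, -3.03 for DAL4, -2.31 for GDH2, -2.26 for GAP1 and -2.10 for GDH3. For galactose minus glucose they were 1.17 for DAL81, 1.01 for GZF3, 0.94 for PUT3, 0.67 for DAL5, -2.52 for GDH2, -2.09 for PUT4, -1.70 for CAR1 and -1.63 for UGA1. For raffinose minus galactose they were 1.75 for CAR1, 1.54 for CAN1, 0.81 for PUT4, -1.74 for DAL4, -1.53 for MEP1, -1.51 for GAT1 and -1.40 for DUR3. Under the 3 averagings, fitted without the replicate block, 0 of the raffinose minus galactose calls held. The DAL5 call was lost with arrays centred. One array stood far from the other 3 of its sugar: galactose replicate 1 read 0.615 for GZF3, while the others read 0.72 on average for replicates 3 and 4 and 0.72 for replicate 2. Of 108 sets of 4 arrays tested in this way, chance would single out about 5%.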

How the results depend on the processing

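With replicates 1 and 2 averaged, and 3 and 4 averaged, 2 of the 36 genes were called for raffinose, 10 for galactose and 18 for glucose. There were 4 in raffinose minus glucose, 4 in galactose minus glucose and 0 in raffinose minus galactose (limma, 14 without averaging). In raffinose minus galactose 84 of all 5636 genes were called in that setting, against 30.5% of them without averaging. With averages of 1 and 3, and 2 and 4, the counts were 26 in raffinose, 29 in raffinose minus glucose and 24 in raffinose minus galactose. With averages of 1 and 4, and 2 and 3, they were 30 in raffinose, 32 in raffinose minus glucose, 31 in galactose minus glucose and 29 in raffinose minus galactose. The replicate number as a block gave 25 in raffinose, 29 in raffinose minus glucose and 25 in raffinose minus galactose. Of all genes it called 60.4%, 62.0% and 59.6% there, against 36.7%, 37.6% and 30.5% without it. A term for replicates 1 and 2 against 3 and 4, added after the data were seen, gave 26, 30 and 25 of the 36 genes. Fitting raffinose alone gave 10. Shares of all genes are not given here for the other averagings, this fit, the added term or single arrays left out. Moves of those counts cannot be read as particular to the 36 genes. With raffinose replicates 3 and 4 turned, raffinose had 0, and the called values that changed sign were, in raffinose, DAL5 (-0.081), GAP1 (0.29), MEP3 (0.20) and GAT1 (0.024), and in raffinose minus glucose GAT1 (0.38). MEP3, not called in raffinose minus glucose as deposited, was called there at 1.30 after turning. Turning cancels what the pairs share by construction; the cause of the other moves was not tested. Leaving out 1 array gave 11 to 18 genes in raffinose (11 without raffinose replicate 4), 23 to 25 in galactose, 24 to 29 in glucose, 16 to 21 in raffinose minus glucose, 17 to 20 in galactose minus glucose and 12 to 14 in raffinose minus galactose. Every other alternative kept the counts of both directions together within 1.5 times. Counts by direction moved more, among them 6 higher in raffinose without raffinose replicate 2 or 4 (10 with all arrays), 3 lower in glucose without glucose replicate 1 (6 with all arrays), and in raffinose minus galactose 6 higher with arrays centred (3 as deposited). With raffinose turned, 5 were higher in raffinose minus glucose, 2 in galactose minus glucose and 5 in raffinose minus galactose (1, 5 and 3 as deposited). With arrays centred or scaled, no called gene changed sign. The block ended no call among the 36 genes. It leaves their means as they are and takes the shift between replicate numbers out of the error, so few calls could end. Averaging replicates 1 and 2, and 3 and 4, ended 81 of their calls over all comparisons. It was fitted without the block, so that shift stayed in its error, also for differences between sugars. Promoter motifs were not searched.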
